A study of Mus musculus with 3 samples.

Results

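The 38 Hox genes described here are the members of the Hoxa, Hoxb, Hoxc and Hoxd clusters that were named for this account, chosen by name and not by any measured value. They are 38 of the 21851 protein-coding genes considered, with 10 in Hoxa, 10 in Hoxb, 9 in Hoxc and 9 in Hoxd. Accessible chromatin was mapped by DNase-seq, in which DNase I cuts DNA where nucleosomes leave it exposed, in primary monocytes of adult B6CASTF1/J mice. These are the first-generation cross of the C57BL/6J and CAST/EiJ strains, and the animals were virgin females of 2 months with no treatment named. The 3 libraries are labelled biological replicates 1, 2 and 4 with 1 technical replicate each, they share 1 donor identifier, and they form 1 group. Nothing states that they came from separate animals, so each SD measures the spread between libraries, which may be technical.

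Hox genes encode homeodomain transcription factors that specify position along the body axis, and their order along each cluster follows the order of their expression from head to tail. In cells that do not use them they are commonly held silent by Polycomb complexes, while trithorax proteins such as the one encoded by Kmt2a keep active members on, and CTCF bound inside the clusters separates active from silent stretches. In blood, genes such as Hoxa9, Hoxa10 and Hoxb4 are known for their activity in stem and progenitor cells and are turned down as myeloid cells mature.

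The libraries held 54046, 42657 and 48980 peaks in replicates 1, 2 and 4, and 34441 of 63420 merged regions (54.3%) had a peak in every library. Sequencing depth is unknown, since the files hold no read counts. Among 10 monocyte marker genes, 8 carried a promoter peak in every library, Csf1r, Cx3cr1, Itgam, Spi1, Cebpb, Fcgr3, Lyz2 and Cd14, while Ly6c2 had one in 1 library and Ccr2 in none. The counts for other lineages were 3 of 6 stem and progenitor, 1 of 6 neutrophil granule, 1 of 6 T cell, 1 of 6 B cell and 0 of 6 erythroid markers. The stem and progenitor genes open in every library were Kit, Flt3 and Meis1. Their part in the Hox results was not tested.

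The sequences that recur through the clusters are shown first. Of the 8 footprints (short protected stretches inside peaks) that held the core of the CTCF recognition sequence in all 3 libraries, 6 are printed, each as 30 bases from the GRCm38 genome, 5′ to 3′ on the strand that carries the core, with the core in capitals. The genome is that of C57BL/6J, so the CAST/EiJ allele may differ.
Start of the Hoxa7 gene record, chr6:52221798-52221827, minus strand: gaaaattccaggAGATGGCagtgtggctcc
Hoxa10 promoter, chr6:52240530-52240559, minus strand: gcagccgccacgAGATGGCgcactcccgat
Between Hoxa11 and Hoxa13, chr6:52257114-52257143, plus strand: cttgtcaacacgAGGTGGCgcccttgatct
Between Hoxb9 and Hoxb8, chr11:96278941-96278970, plus strand: acagtggccgctAGATGGCatccttgctcc
Intron of Hoxb6, chr11:96294687-96294716, minus strand: cgaacggacggtAGATGGCagcaaactgca
Between Hoxc9 and Hoxc8, chr15:102987586-102987615, plus strand: caagtgaacgcgAGGTGGCgctgttgctca

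Most Hox promoters had no peak in monocytes, and the 5 that had one had it in every library: Hoxa4, Hoxa10, Hoxb4, Hoxb5 and Hoxc10. A promoter peak is a peak within 1 kb of any protein-coding transcription start site (TSS) of the gene. The 5 genes are 13.2% of the 38 members, against 50.5% of all protein-coding genes called by the same rule. In single libraries the count was also 5, against 54.3%, 52.2% and 52.9% of all genes in replicates 1, 2 and 4. The other 33 members (86.8%) had none in any library, against 44.1% of all genes. No member was open in only some libraries. The same 5 genes remained with the authors' shorter, stricter peak list, where the share of all genes was 46.9%, and with the taller 50% of peaks, where it was 44.1%.

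The members without a promoter peak were Hoxa2, Hoxa3, Hoxa5, Hoxa6, Hoxa7, Hoxa9, Hoxa11 and Hoxa13 in Hoxa, and Hoxb1, Hoxb2, Hoxb3, Hoxb6, Hoxb7, Hoxb8, Hoxb9 and Hoxb13 in Hoxb. In Hoxc they were Hoxc4, Hoxc5, Hoxc6, Hoxc8, Hoxc9, Hoxc11, Hoxc12 and Hoxc13, and in Hoxd all 9 members, Hoxd1, Hoxd3, Hoxd4, Hoxd8, Hoxd9, Hoxd10, Hoxd11, Hoxd12 and Hoxd13. Hoxa9, a factor of blood progenitors and of myeloid leukaemia, and Hoxa13 and Hoxd13, which pattern the limb tip and hindgut, are thus on the side without peaks. Weak signal under the peak threshold was also scarce there. The authors' deposited false discovery rate (FDR) of cleavage is listed wherever it is under 0.05. Of these 33 promoters, 32 had no listed position in any library. The exception was Hoxa7, listed in replicate 4 only with an FDR of 0.0456. Over all protein-coding genes, 9314 (42.6%) had no listed position and 9630 (44.1%) had no promoter peak in any library. These counts are close, so the scarcity was not shown to be particular to Hox promoters. Among the 5 open promoters the weakest best FDR was 3.40e-05. The FDR and the peaks come from the same reads, so they are not independent measures.

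The choice of TSS decides 3 genes. Under the comprehensive annotation, with the start of every transcript, Hoxa7 and Hoxc5 were also open in all 3 libraries, which gives 7 of 38 members against 52.2% of all genes. The Hoxc5 record starts at chr15:102967443, within 1 kb of the Hoxc10 promoter peak, so that peak counts for both genes. Hoxa10 lost its peak when TSSs of principal isoforms alone were used: its peak lies at its upstream TSS. A window of 2000 bp added Hoxa3, for 6 members.

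By paralog group, the open promoters fell in groups 4, 5 and 10. Paralog groups are the sets of genes at matching positions of the 4 clusters. Group 4 had Hoxa4 and Hoxb4 open of 4 members, group 5 had Hoxb5 of 3, and group 10 had Hoxa10 and Hoxc10 of 3. Counting only the members named here, the remaining groups had 0, the 1 to 3 set at the anterior end and the 11 to 13 set at the posterior end included. By cluster, 2 of 10 members were open in Hoxa, 2 of 10 in Hoxb, 1 of 9 in Hoxc and 0 of 9 in Hoxd. The difference between clusters was not tested.

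Peak height is the authors' value for the tallest cleavage signal of a peak, on a scale that is not stated. In a bulk preparation, weak opening in most cells and strong opening in a few cannot be told apart. Hoxa10, a posterior-group regulator of myeloid progenitors and of the uterus, had promoter heights of 2.82, 2.13 and 3.28 in replicates 1, 2 and 4, with a mean of 2.74 ± 0.580 (SD, n = 3). Hoxa4, an anterior-group gene of the neck and thorax, had heights of 2.33, 1.92 and 3.09, with a mean of 2.45 ± 0.595 (SD, n = 3). Hoxa10 was above Hoxa4 in each library, by less than the spread between libraries, and both were above the other 3 open promoters in each library.

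Hoxc10, a gene of the lumbar spinal cord and hindlimb, had heights of 1.65, 1.76 and 1.58, with a mean of 1.66 ± 0.0865 (SD, n = 3). Hoxb5, known as a marker of long-term stem cells in blood, had 1.57, 1.45 and 1.36, with a mean of 1.46 ± 0.107 (SD, n = 3). Hoxb4, known for expanding stem cells when overexpressed, had 1.12, 1.36 and 1.52, with a mean of 1.33 ± 0.202 (SD, n = 3). Hoxc10 was the highest of these 3 in each library. As percentiles within replicates 1, 2 and 4, it stood at 71.0, 71.7 and 62.3, and Hoxb5 at 69.8, 65.7 and 56.9. These 2 ranges overlapped between libraries. Hoxb5 and Hoxb4 overlapped, and Hoxb4 was the higher in replicate 4 only. No Hox promoter was tall for a promoter. Genes with a promoter peak had a median height of 3.60, 3.13 and 4.65 in replicates 1, 2 and 4, above Hoxa10 in each. Among all peaks of a library, the mean percentile of height was 80.1 for Hoxa10, 77.7 for Hoxa4, 68.3 for Hoxc10, 64.1 for Hoxb5 and 60.7 for Hoxb4.

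The 5 peaks sat close to the TSS they mark. The region at Hoxa10 (chr6:52240441-52240660, minus-strand gene at chr6:52231197-52240854) lies in its 5′ UTR, centred 0.304 kb downstream of the upstream TSS. The region at Hoxb4 (chr11:96318541-96318760, plus-strand gene at chr11:96318267-96321638) also lies in a UTR, 0.383 kb downstream of the TSS. The other 3 lie upstream of the TSS, by 0.217 kb at Hoxa4 (chr6:52191881-52192060), 0.272 kb at Hoxb5 (chr11:96303141-96303340) and 0.186 kb at Hoxc10 (chr15:102966521-102966700). The Hoxa4 region is also inside an intron of the long Hoxa3 record, and the Hoxb5 region inside the antisense gene Hoxb5os.

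**Figure D1:**
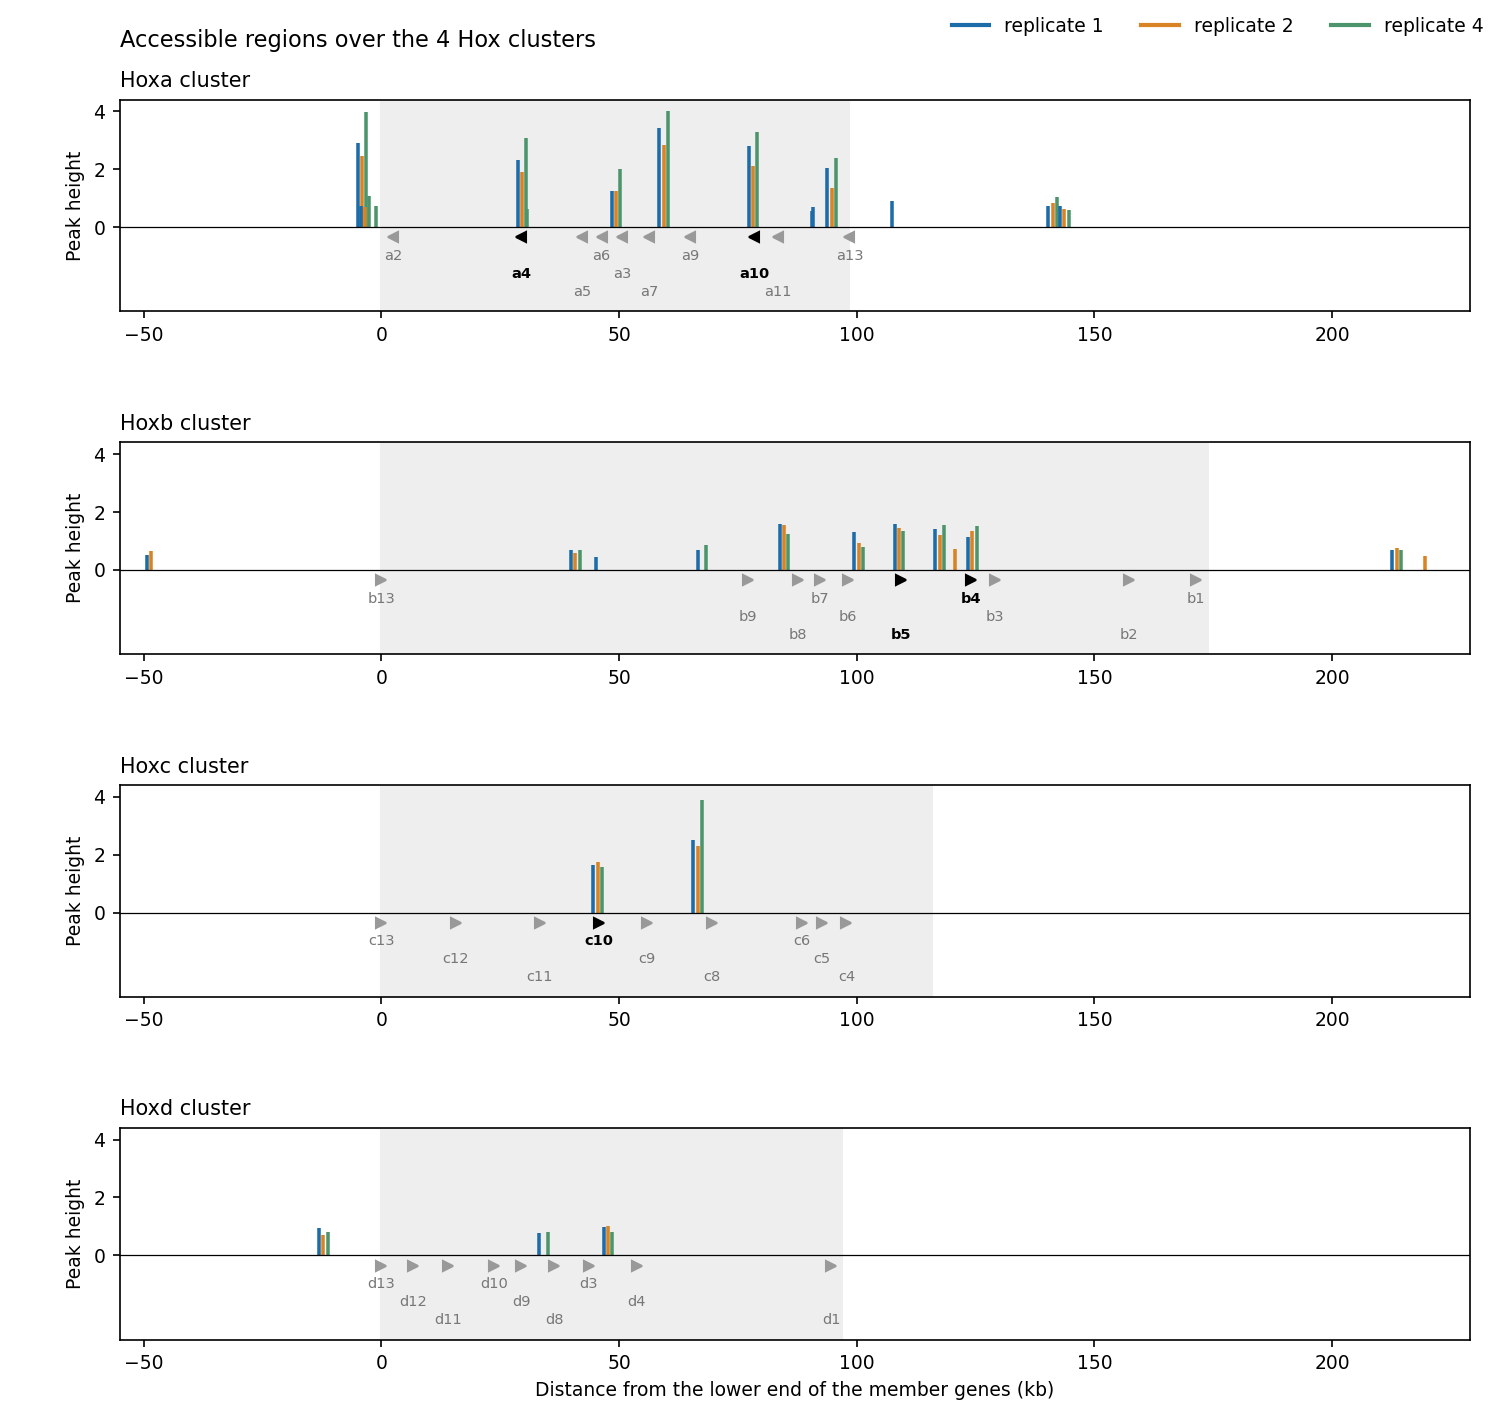
Peaks of the 3 libraries along the 4 clusters. The horizontal axis is distance in kb from the lower end of the member genes, the vertical axis is the deposited peak height, each bar is a peak of 1 library (bars of neighbouring libraries are set slightly apart for visibility), arrowheads mark the most upstream coding TSS and its direction, black for the 5 members with a promoter peak, and the grey band spans the member genes. Hoxa and Hoxb carry 9 and 7 regions seen in all 3 libraries, and Hoxc and Hoxd carry 2 each.

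The clusters differed in how many peaks they held, with the Hoxa window well above the genome, the Hoxb window above it, and the Hoxc and Hoxd windows below it. A window runs from 50 kb before the first member to 50 kb after the last. The Hoxa window held 12, 9 and 11 peaks in replicates 1, 2 and 4, or 5.37 ± 0.770 per 100 kb (SD, n = 3), which is 2.83 ± 0.0925 times the genome density of 1.90 ± 0.223 per 100 kb (SD, n = 3). The Hoxb window held 10, 10 and 8 peaks, or 1.82 ± 0.341 times the genome density (SD, n = 3). Density fell in the order Hoxa, Hoxb, Hoxd, Hoxc within each library. The Hoxc window held 2, 2 and 2 peaks, or 0.494 ± 0.0592 times the genome density, and the Hoxd window 3, 2 and 3, or 0.710 ± 0.0939 times (SD, n = 3 for both). The order of Hoxd and Hoxc depends on the peaks taken: with the shorter list, as with the taller 50% of peaks, Hoxd held a mean of 1 peak and Hoxc 2. With 1 group of 3 libraries, an exact paired test between clusters cannot give a two-sided p under 0.25, so none was made.

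Set against gene-dense DNA, no window stood high. Among 1180 genome tiles of 200 kb with at least 10 coding TSSs, the median was 6, 5 and 5.5 peaks per 100 kb in replicates 1, 2 and 4. The Hoxa window, at 6.05, 4.53 and 5.54, sat near that median, and the other 3 windows sat below it in every library. Within the gene span alone, Hoxa reached 3.20 ± 0.160 and Hoxb 2.23 ± 0.163 times the genome density, while Hoxc, at 0.920 ± 0.110, and Hoxd, at 0.893 ± 0.241, were near it (SD, n = 3). In replicate 2 the Hoxd span, at 1.03 peaks per 100 kb, was below the Hoxc span, at 1.73. The flanks of Hoxc held 0 peaks in all libraries, as did the flank beyond Hoxd1.

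**Figure D2:**
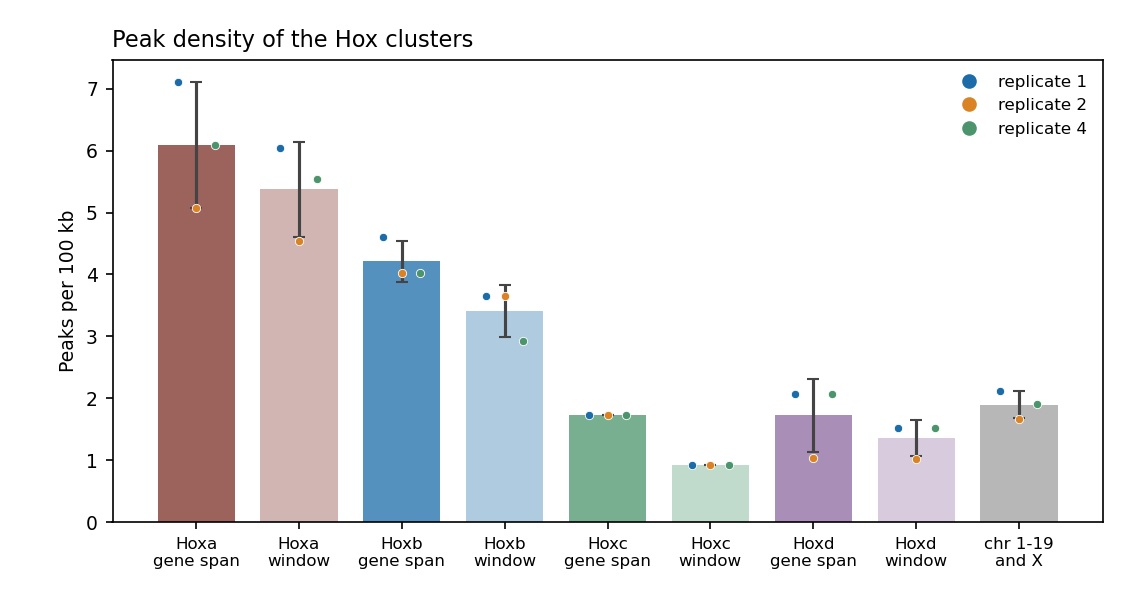
Peaks per 100 kb in the gene span and in the window of each cluster, and over chromosomes 1 to 19 and X. Bars are means over 3 libraries starting at 0, error bars are SD, and points are libraries. The Hoxa window averages 5.37 and the Hoxc window 0.927 per 100 kb, against 1.90 for the genome.

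Each gene span held a stretch with no peak in any library, and the longest of each is given here. In Hoxd, 49.1 kb or 50.7% of the gene span was bare, with TSSs of Hoxd3, Hoxd4 and Hoxd1. In Hoxc it was 49.2 kb or 42.5%, with the TSSs of Hoxc8, Hoxc6, Hoxc5 and Hoxc4. In Hoxb it was 49.5 kb or 28.5%, over Hoxb3, Hoxb2 and Hoxb1, the anterior end. The longest in Hoxa was shorter, 29.5 kb or 29.9%, with the TSS of Hoxa2 and, at its edge beside the peak, that of the open Hoxa4. The genome averaged 1.90 peaks per 100 kb in a library. The length of bare stretches elsewhere in the genome was not computed, so whether these are unusual cannot be said.

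Most of the accessible regions of the gene spans were not at promoters, as was also so genome-wide. Of 20 regions with a peak in all 3 libraries, 14 lay in a gene span, of which 9 were not at a promoter, and 6 lay in a flank. Genome-wide, 20741 of 34441 such regions were not at a promoter, a similar share. In all 3 libraries were 9 of 14 Hoxa regions (64.3%), 7 of 12 Hoxb regions (58.3%), 2 of 2 Hoxc regions and 2 of 3 Hoxd regions (66.7%), against 54.3% of all regions. Their heights were also ordinary, with a median percentile of 63.2 against 62.4 for all such regions.

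The tallest region of the clusters lies at the 5′ end of the Hoxa7 gene record (chr6:52221701-52221920), 3.10 kb upstream of the nearest coding TSS of the basic annotation. Its heights were 3.44, 2.84 and 4.01 in replicates 1, 2 and 4, with a mean of 3.43 ± 0.586 (SD, n = 3) and a mean percentile of 84.4. A Hoxa7 transcript of the comprehensive annotation starts inside it. In Hoxc, the tallest region (chr15:102987501-102987700) lies between Hoxc9 and Hoxc8 and inside an intron of the long Hoxc5 record. It had heights of 2.51, 2.31 and 3.89, with a mean of 2.91 ± 0.856 (SD, n = 3), above the Hoxc10 promoter in each library. These 2 regions, like the Hoxa10 promoter, carry a core printed above. The Hoxc region is shown whole, plus strand, with its footprint in capitals.
Hoxc9 to Hoxc8 region: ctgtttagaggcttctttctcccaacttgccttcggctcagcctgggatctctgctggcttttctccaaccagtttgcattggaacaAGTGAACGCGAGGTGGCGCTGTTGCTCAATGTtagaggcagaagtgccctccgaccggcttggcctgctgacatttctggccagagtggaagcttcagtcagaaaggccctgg

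Further regions of the Hoxa gene span were lower. The region between Hoxa11 and Hoxa13 (chr6:52257055-52257240), in an exon of the unclassified transcript record 9530018H14Rik, had heights of 2.03, 1.36 and 2.40, with a mean of 1.93 ± 0.529 (SD, n = 3). The region at chr6:52211661-52211840, 1.36 kb downstream of the Hoxa3 TSS, had heights of 1.24, 1.24 and 2.02, with a mean of 1.50 ± 0.449 (SD, n = 3). Both were tallest in replicate 4. The shorter list held the first of them in replicates 1 and 4 and the second in replicate 4 only.

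Hoxb had no region as tall. Between Hoxb9 and Hoxb8 (chr11:96278861-96279060), heights were 1.60, 1.57 and 1.23, with a mean of 1.46 ± 0.208 (SD, n = 3). At chr11:96311621-96311840, 6.54 kb upstream of Hoxb4, they were 1.43, 1.21 and 1.56, with a mean of 1.40 ± 0.179. In an intron of Hoxb6 (chr11:96294601-96294820) they were 1.30, 0.922 and 0.792, with a mean of 1.01 ± 0.265. The first and second of these 3 did not differ from the Hoxb5 and Hoxb4 promoters beyond the spread between libraries.

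Hoxd had the weakest signal. Its only gene-span region in all 3 libraries (chr2:74715825-74716060) overlaps an exon of the antisense gene Hoxd3os1, 4.01 kb downstream of a Hoxd3 TSS, with heights of 0.981, 1.00 and 0.817 and a mean of 0.933 ± 0.101 (SD, n = 3). Its other region (chr2:74655985-74656174) lies in a coding exon of Evx2, the even-skipped homeobox gene beside Hoxd13, with a mean of 0.809 ± 0.120 (SD, n = 3), and none of its peaks is in the shorter list. Elsewhere in the flanks, the region in an exon of Hotairm1 (chr6:52158221-52158440), a myeloid antisense RNA, was tall, at 2.89, 2.47 and 3.96, with a mean of 3.11 ± 0.766 (SD, n = 3). The tallest in the flank beyond Hoxa13 averaged 0.865 ± 0.147 and in that beyond Hoxb1 0.720 ± 0.0372 (SD, n = 3 for both). The Hoxb13 flank had none in all 3 libraries.

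**Figure D3:**
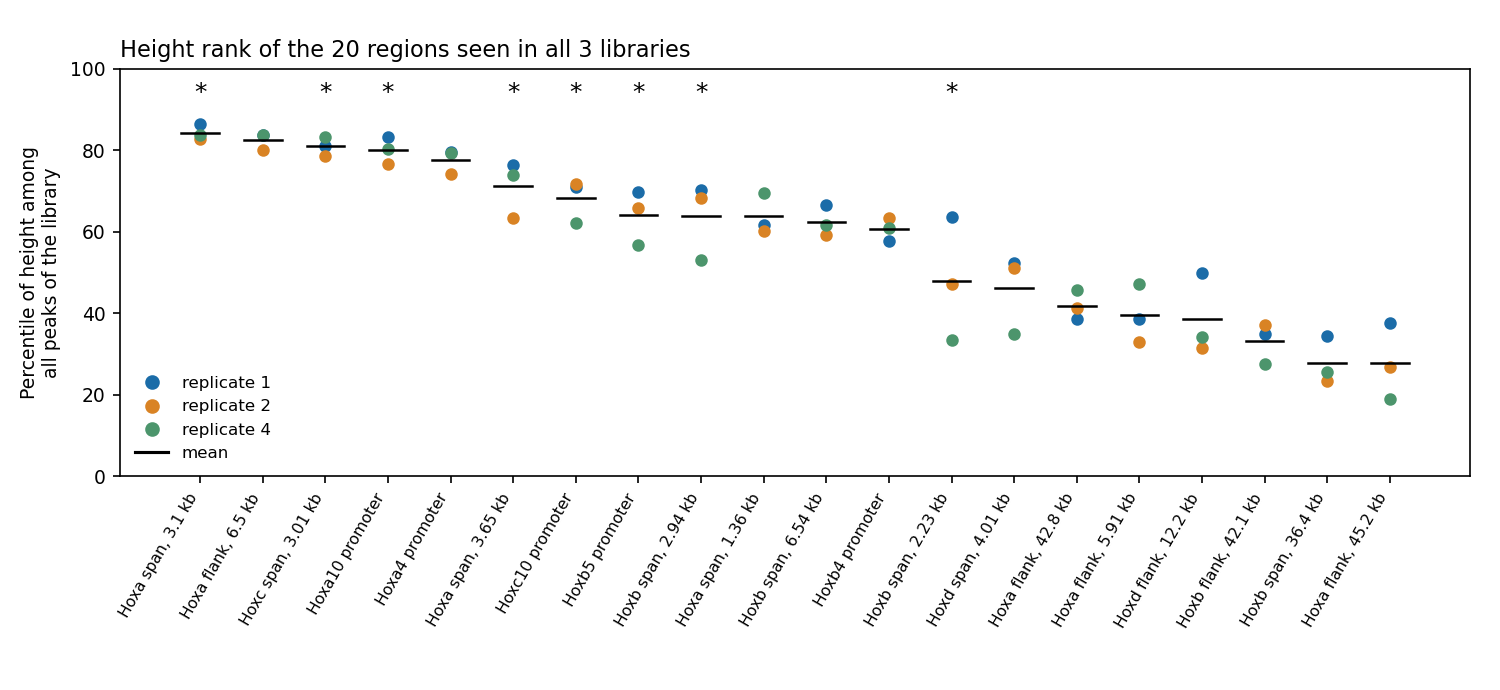
Percentile of peak height among all peaks of the library for the 20 regions with a peak in all 3 libraries, in order of the mean (line). Points are libraries, labels give the cluster, the part of the window and, where not at a promoter, the distance to the nearest member TSS, and asterisks mark the 8 regions with a CTCF core in a shared footprint. The region at the start of the Hoxa7 gene record is highest at a mean of 84.4, and the Hoxa10 promoter averages 80.1.

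The letters of the CTCF core recurred in footprints of the gene spans. The core was searched on both strands as AGAGGGC or AGATGGC, and likewise as AGGGGGC or AGGTGGC, in footprints found in all 3 libraries and extended by 5 bp. It was in 8 of 18 such footprints of the Hox windows (44.4%), against 16.8% of 44820 genome-wide. The 8 were 23 to 39 bp wide, against a median of 23 bp for all shared footprints. A longer footprint has more places for a match, and the shares were not matched for width. In the 200 bp around the region centres the shares lay closer, 9 of 20 (45%) against 34.0% of 34441. All 8 footprints were in gene spans, in 8 of 14 regions, and 0 of 6 flank regions had one. Of the flank regions, only the one in Hotairm1 held any shared footprint. The others could thus not have had a core in one, and spans and flanks cannot be compared on this count. The 8 footprints were in Hoxa (3), Hoxb (3) and Hoxc (2), with 0 in Hoxd, and 3 of the 5 open promoters had one, Hoxa10, Hoxb5 and Hoxc10.

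The form of the core was uniform. All 8 read AGATGGC (4) or AGGTGGC (4), the forms with a T at the middle, while 28.9% of the 7519 core-bearing footprints genome-wide held these forms alone. On the strand of the cluster's genes lay 6 of the 8, the exceptions being the sites between Hoxa11 and Hoxa13 and in Hoxb6. The core was among sequences chosen with earlier results of these data known, so its shares are descriptive. A match in letters describes the sequence and does not show which protein was bound.

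Sequences that Hox proteins bind were rare in the 200 bp around the region centres, as they were genome-wide. TGATTNAT, the joint HOX and PBX sequence, and TAATTA, a homeodomain sequence, were each in 0 of 20 such windows, against 1.27% and 1.47% genome-wide. TTTATNG, of CDX and posterior HOX proteins, was in 1 of 20, the region downstream of the Hoxa3 TSS, against 4.36%. Of 14 sequences searched on both strands in these windows, the E-box CACGTG was in 5 of 20 regions against 6.31% genome-wide, with the Hoxa4 and Hoxb4 promoters among them. At Hoxa4 it lay in a shared footprint. The Hoxc10 promoter held the cyclic AMP response sequence TGACGTCA in a shared footprint, found in 1.62% of regions. The PU.1 sequence GAGGAAGT, of the factor that directs myeloid fate, was in 1 of 20 regions, the one in Hotairm1, against 6.31%.

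Open and closed Hox promoters overlapped in CpG content. The measure is observed over expected CpG in the 500 bp on either side of the most upstream coding TSS, and the members' median was 0.661 against 0.571 for all genes. Of the 22 members at 0.6 or more, 2 were open in every library, Hoxa4 and Hoxb5, against 81.0% of all genes at that content. Hoxd had the highest median, 0.726, and no open promoter, while Hoxb, at 0.472, had the lowest. Hoxa5, at 0.996, had the highest value of any member and no peak.

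**Figure D4:**
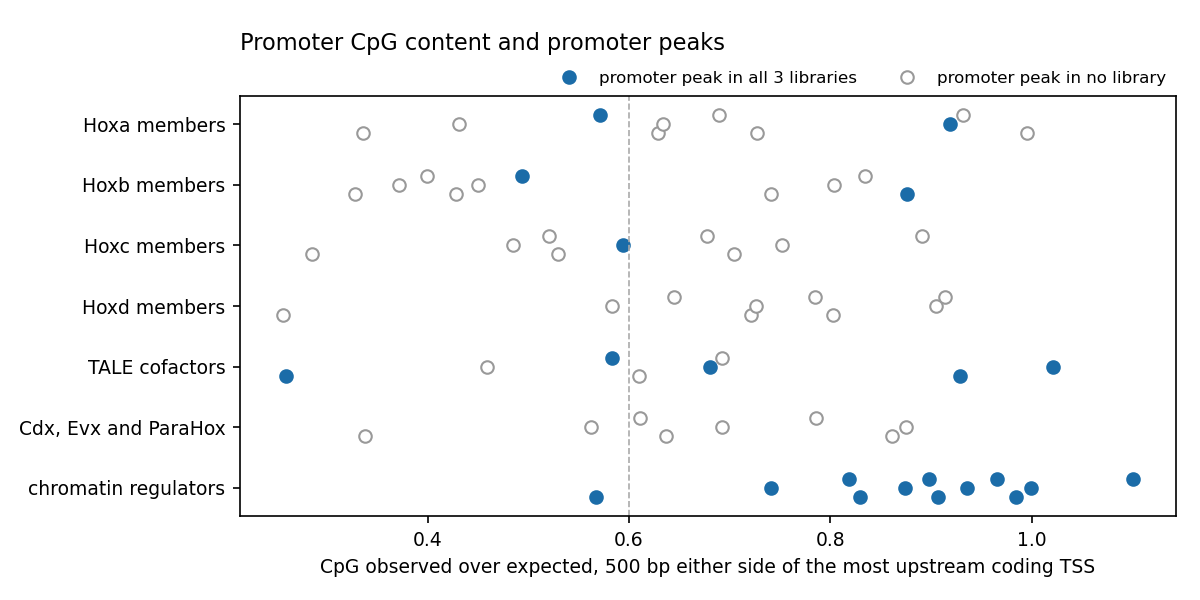
CpG observed over expected at the promoter (horizontal axis, a ratio) for the Hox members by cluster and for 3 further lists, with filled points for genes with a promoter peak in all 3 libraries and open points for genes with none. The dashed line is 0.6; right of it 2 of 22 Hox members are filled.

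Of the genes that work with Hox genes, the chromatin regulators were all open and the TALE genes in part, while the homeobox relatives of Hox genes were not open. The TALE homeodomain proteins bind DNA together with Hox proteins, and 5 of the 8 reported here were open at the promoter in every library, Pbx2, Pbx3, Pbx4, Meis1 and Pknox1, while Meis2, Meis3 and Pknox2 had none. Meis1, the partner of Hoxa9 in leukaemia, had heights of 3.18, 2.77 and 3.76, above the 5 open Hox promoters in each library. The region at the start of the Hoxa7 gene record, a promoter under the comprehensive annotation only, was taller, at 3.44, 2.84 and 4.01. Of the chromatin regulators of Hox genes, 12 of 12 were open, with the trithorax-side Kmt2a, Men1, Psip1, Dot1l, Mllt1 and Mllt3 and the Polycomb Ezh2, Eed, Suz12, Rnf2, Bmi1 and Cbx2. Their mean heights ran from 1.27 at Cbx2 to 9.55 at Dot1l. Of the Cdx, Evx and ParaHox genes, the nearest relatives and upstream regulators of Hox genes, 0 of 8 carried one in any of the libraries. The share of all genes is 50.5%, as above, and the TALE share is near it. All chromatin regulators but Men1, at 0.568, had a CpG ratio of at least 0.6, where 81.0% of all genes were open. Most of the Cdx, Evx and ParaHox genes also had a ratio of at least 0.6. Whether these lists differ from genes of like CpG content was not tested.

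Of the non-coding genes in the windows, 2 of 20 long ones were open at their start in every library, Hotairm1 and Hoxd3os1, against 1861 of 9793 genes of these types genome-wide (19%), and Gm53 was open in 2. Hottip, at the Hoxa13 end, Hotair, in Hoxc, and Haglr, in Hoxd, had no peak there. Of 7 miRNA genes 0 had one, Mir196b, Mir10a, Mir196a-1, Mir196a-2, Mir615 and Mir10b among them, against 9.72% of all miRNA genes. Of 4 further protein-coding genes, Evx2 included, 0 had one.

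Footprints followed the peaks. The Hoxa window held 28, 19 and 18 footprints in replicates 1, 2 and 4, the Hoxb window 25, 17 and 11, the Hoxc window 4, 4 and 6 and the Hoxd window 4, 2 and 5. All of them lay inside peaks. Replicate 1, with 144028 footprints against 107955 and 119597 in replicates 2 and 4, also had the most footprints in Hoxa and Hoxb.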

How the data were processed

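DNase-seq was deposited as 2 peak lists, 1 footprint list and 1 FDR file per library on mm10, made by the authors from the filtered alignment of each library, per the file headers of the description files. How reads were aligned, and which programs called peaks and footprints, is not given in the sources used here. The deposited peak height is a signal whose scale is not stated. It was used as deposited and as a percentile within a library. The FDR, of the q-value kind, was computed by the authors and is listed under 0.05. The footprints' p-value column is 1 constant in the deposited lists and was not used.

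The longer peak list was the main one. Genes came from GENCODE M21 basic, sequence from GRCm38.p6, where 0 deposited intervals passed a chromosome end. Promoter peaks overlapped 1000 bp either side of a protein-coding TSS by at least 1 bp. Peaks overlapping by at least 1 bp were merged into regions. Window counts take any overlap, and gene spans and flanks take peak midpoints. All 38 members matched by symbol. A further homeobox gene of the windows, which was not a member, and a gene of the list of TALE cofactors are not reported here.

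Every member with a promoter peak was named with its heights and the others as having none. Per cluster up to 5 regions of the gene span by mean height, and the tallest of each flank, were named, all with a peak in all 3 libraries. Members were chosen by name and not by a measured value. Even so, members, lists and sequences searched were chosen with earlier results of these data known. No test was made, since there is 1 group. The interval code was tested on simulated data. Alternatives were the shorter list, taller peaks, other windows, TSS sets, overlaps and leaving out a library. Python 3.11.15, numpy 2.4.6 and matplotlib 3.10.9 were used.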

Additional observations from a re-analysis of the deposited data

How the results depend on the processing

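Of 142 alternative values for 22 results, 127 stayed within 1.5 times a count or within 1 SD of a height, and 15 did not. Leaving out each library in turn moved no count beyond this. It cannot move a mean height by 1 SD of the 3 libraries, so those height checks could not fail. Heights with the shorter list and with 500 bp windows were identical to the main ones, as were footprint counts inside peaks. The 127 is thus not a measure of robustness. The count of open members in Hoxa went from 2 to 1 with principal-isoform TSSs alone. In Hoxc it went from 1 to 2 with every transcript start, an alternative chosen after seeing the data. With the taller 50% of peaks, the mean peaks per window were 6 in Hoxa, 4.33 in Hoxb and 1 in Hoxd, against 10.7, 9.33 and 2.67, and the regions in all 3 libraries were 4 in Hoxb and 0 in Hoxd, against 7 and 2. With the shorter list, Hoxd had 1 peak and 1 region, and Hoxa 5 regions against 9. Without the 50 kb margin, Hoxa had 6 peaks and 5 regions, and Hoxd 1.67 peaks and 1 region. These are smaller sets of peaks or of DNA by construction. With a margin of 100 kb, Hoxd had 6.67 peaks and Hoxc 3. Hoxc had 2 peaks under the other settings, so Hoxd was below Hoxc with the shorter list, the taller peaks and no margin.

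No paired analysis was possible because there are no groups of samples to pair, all libraries belonging to 1 group. Depth is unknown, so a missing peak says that none was called, not that the chromatin was closed, and no interval was given for a count.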
